A study of Homo sapiens with 18 samples.

Results

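Mitochondrial ribosomal proteins are made from nuclear genes and imported into mitochondria, and their genes were followed in 3 cancer cell lines with and without doxycycline. Members were all gene names made of MRPL or MRPS, a number and at most 1 further letter, with pseudogenes left out and a mean of at least 1 TPM over the 6 columns of a line. TPM (transcripts per 1000000) is a level per transcript length, scaled so that each column has the same sum. The rule gave 77 members (49 MRPL and 28 MRPS) of 25673 names in RKO, 74 (46 MRPL and 28 MRPS) of 19881 in COLO 201 and 74 (46 MRPL and 28 MRPS) of 19977 in H1975. The same 74 members were tested in every line, and RKO added MRPL30, MRPL57 and MRPL58.

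The mitochondrial ribosome, or mitoribosome, has a large subunit, built with MRPL proteins, and a small subunit, built with MRPS proteins. It descends from a bacterial ribosome, and many of its proteins have bacterial counterparts while others are found only in mitochondria. It translates the messenger RNAs of mitochondrial DNA into core subunits of the respiratory chain and of ATP synthase. Tetracyclines such as doxycycline block bacterial translation and are known to slow mitochondrial translation too.

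RKO and COLO 201 are established colon cancer lines, and H1975 is an established lung cancer line. All 18 cultures carried puromycin resistance and a tetracycline-inducible hairpin RNA against MUC1, labelled tet-MUC1shRNA. The groups in each line were 3 columns with doxycycline, given at 500 ng/ml, and 3 columns with its vehicle, 0.1% DMSO, from cells cultured in triplicate. The arm was read from the column headings, and for RKO the vehicle arm is an inference, since its headings lack a minus sign. Duration was not given in the sources used here. Doxycycline was also the inducer of the hairpin, and no column with a control hairpin was used here, so the effects of doxycycline itself and of the hairpin cannot be told apart. Nothing says that the triplicates were grown apart, so p-values measure the spread between these columns, which may be technical.

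The hairpin's target fell in each line, and the RKO columns need care. MUC1 went from a mean of 13.9 to 1.78 TPM in COLO 201 and from 97.5 to 8.01 TPM in H1975. In RKO the vehicle columns held 15.2, 1.24 and 1.03 TPM and the doxycycline columns 0.108, 0.105 and 0.204 TPM. Vehicle column 1 of RKO also stood apart in a list of 9 fibroblast and endothelial markers, whose summed level was 182.8 TPM there and at most 0.0199 TPM in each doxycycline column. The collagens COL1A1, COL1A2 and COL3A1 made up nearly all of it and were listed at 0 in the other RKO vehicle columns. Genes of small noncoding RNA held 67.5% to 71.6% of the total in the RKO vehicle columns and 70.8% to 78.5% in those with doxycycline. No mitochondrially encoded gene was listed for RKO, whereas such genes took 20.1% to 23.0% of TPM in COLO 201 vehicle columns and 16.9% to 18.6% with doxycycline, and 17.4% to 22.5% and 16.1% to 17.4% in H1975. Of 8 colon epithelial markers, 6 were under 1 TPM in every RKO column and 1, CDX1, in every COLO 201 column. Of 8 lung epithelial markers, SFTPA1, SFTPB, SFTPC and SFTA2 were under 1 TPM in every H1975 column, while NKX2-1 was at 23.8 TPM with vehicle.

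Promoter sequences are shown for 4 members picked by the 3 words searched. They are MRPL42 for the YY1 word, MRPL17 for the NRF1 word, MRPL18 for the ETS word and MRPS35 for having none. For each, the named and called member with the largest absolute change was taken. MRPL42, MRPL17 and MRPS35 were lower with doxycycline in both colon lines, and MRPL18 was lower in RKO and higher in H1975. The windows run from 250 bases before to 50 bases after the start, come from RefSeq on GRCh38.p14 and are written 5′ to 3′ on the strand of the gene. Capitals mark matches, on either strand, to CGCATGCGC (bound by NRF1), CCGGAAG (bound by GABPA and other ETS factors) or AAGATGGCG (bound by YY1), factors known to act at promoters of nuclear genes for mitochondrial proteins.
MRPL42, chr12:93467264-93467563, plus strand: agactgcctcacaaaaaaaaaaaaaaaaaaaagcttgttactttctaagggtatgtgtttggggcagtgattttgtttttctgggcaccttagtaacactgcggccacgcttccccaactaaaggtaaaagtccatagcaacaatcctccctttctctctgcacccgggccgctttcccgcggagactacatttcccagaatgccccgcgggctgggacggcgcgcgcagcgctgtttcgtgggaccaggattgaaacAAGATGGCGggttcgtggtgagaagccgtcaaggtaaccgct
MRPL17, chr11:6683291-6683590, minus strand: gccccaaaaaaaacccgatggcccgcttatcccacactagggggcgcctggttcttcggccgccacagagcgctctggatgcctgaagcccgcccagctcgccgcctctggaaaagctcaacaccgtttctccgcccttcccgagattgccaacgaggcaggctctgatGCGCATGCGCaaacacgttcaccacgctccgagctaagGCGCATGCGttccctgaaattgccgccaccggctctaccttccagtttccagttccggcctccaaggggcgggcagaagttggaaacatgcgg
MRPL18, chr6:159790217-159790516, plus strand: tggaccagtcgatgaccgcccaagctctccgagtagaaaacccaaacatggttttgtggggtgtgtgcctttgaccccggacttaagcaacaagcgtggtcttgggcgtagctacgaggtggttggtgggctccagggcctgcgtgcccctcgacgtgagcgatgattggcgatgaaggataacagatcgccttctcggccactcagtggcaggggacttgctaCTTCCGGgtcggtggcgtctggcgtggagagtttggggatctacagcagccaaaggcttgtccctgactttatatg
MRPS35, chr12:27710582-27710881, plus strand: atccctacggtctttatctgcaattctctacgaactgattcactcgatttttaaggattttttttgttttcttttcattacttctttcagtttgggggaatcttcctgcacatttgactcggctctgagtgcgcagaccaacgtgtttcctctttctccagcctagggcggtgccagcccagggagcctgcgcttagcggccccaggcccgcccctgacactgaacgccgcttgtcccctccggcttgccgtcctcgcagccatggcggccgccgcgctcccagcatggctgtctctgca

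The MRPL42 window held a YY1 match from base 9 after the start. The MRPL17 window held NRF1 matches at -81 and -80, which overlap as the word is nearly its own reverse complement, and at -43. MRPL18 had 3 windows in the table, and the one shown held the ETS word on the other strand at -26. The MRPS35 window held none of the 3 words, which says only that these letters are not in it.

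Windows were matched for 68 of the 77 members. Of these, 30 (44.1%) held the ETS word, against 12.2% of all 27305 genes with a window. Those genes were not filtered by level or gene type, whereas every member had passed the minimum TPM in at least 1 line. The shares of all genes in this paragraph are therefore not those of genes like the members. The YY1 word was in 12 members (17.6%, against 2.14% of all genes) and the NRF1 word in 3 (4.41%, against 2.34%), namely MRPL17, MRPL22 and MRPS18C. At least 1 of the words was in 39 members (57.4%), against 15.4% of all genes. The median change with doxycycline of members with the ETS word was -0.39 in RKO, 0.21 in COLO 201 and 0.19 in H1975, and that of members without it was -0.30, 0.18 and 0.18. For the YY1 word the medians with and without it were -0.27 and -0.34 in RKO, 0.20 and 0.18 in COLO 201, and 0.17 and 0.18 in H1975. A match is a description of the letters only.

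Doxycycline columns held more mitoribosomal protein mRNA than vehicle columns in COLO 201 and H1975 and less in RKO. The summed TPM of the members was 5840, 5957 and 5833 in the COLO 201 vehicle columns and 6616, 6439 and 6626 with doxycycline. In H1975 it was 7975, 8214 and 8172 with vehicle and 9544, 9365 and 9552 with doxycycline. The arms did not overlap in either line. In RKO the sums were 2132, 2300 and 2055 with vehicle and 1429, 2036 and 1617 with doxycycline, so the arms again did not overlap, but doxycycline column 2 lay next to the lowest vehicle column. Lower sums in RKO than in the other lines go with the TPM taken by small noncoding RNA, and levels are compared only within a line. As a share of the TPM left after mitochondrially encoded and small noncoding genes were taken out, the members made up 0.742% to 0.758% with vehicle and 0.791% to 0.804% with doxycycline in COLO 201. The same share was 0.990% to 1.03% and 1.12% to 1.16% in H1975, and 0.707% to 0.738% and 0.663% to 0.698% in RKO.

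**Figure D1:**
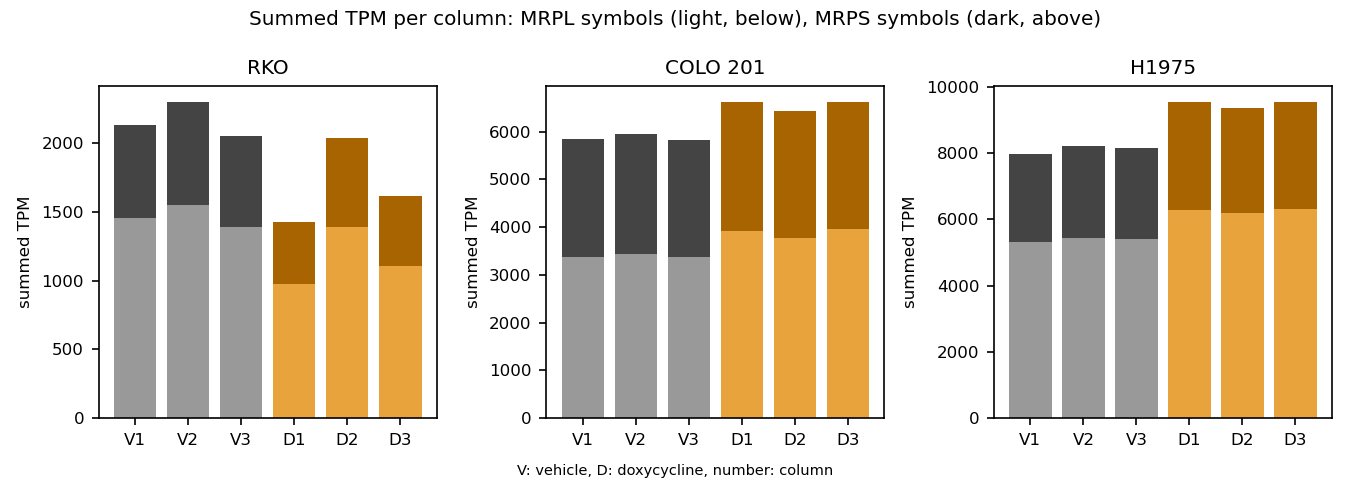
Summed TPM of the members in each column of the 3 lines, with MRPL genes below and MRPS genes above; V columns are vehicle and D columns doxycycline, and each axis starts at 0. All doxycycline columns lie above all vehicle columns in COLO 201 and H1975 and below them in RKO.

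In COLO 201 most members rose. Of 74 members, 51 (68.9%) were called higher and 4 (5.41%) lower, where a call is an adjusted p under 0.05 in limma over all genes of the line. Among all genes tested in COLO 201, 45.9% were called higher and 15% lower. The median change of the members was 0.20 (log2(TPM + 1) scale, doxycycline against vehicle, as for every change below), and the median of all genes was 0.12. When columns were rescaled by their median ratio, which brings the median of all genes to 0.00065, 31 members were called higher and 9 lower, with a median of 0.080. On that scale 3298 of all genes were called higher and 3319 lower, so the members' split of 31 against 9 stood beside a nearly even one. The 31 had all been among the 51, and the 4 lower members were among the 9.

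In H1975 many members rose as well. There 35 of 74 members (47.3%) were called higher and 0 lower by limma, with 1 lower at an unadjusted p under 0.05. Among all genes tested in H1975, 23.9% were called higher and 14.6% lower. The median change was 0.18 for the members and 0.06 for all genes. After rescaling, 23 members were called higher, all among the 35, and 3 lower (MRPL12, MRPL17 and MRPS9), against 2285 higher and 2464 lower of all genes. Without vehicle column 1, or without doxycycline column 1, 18 members were called higher, each among the 35. The calls of MRPL3, MRPL40, MRPL51, MRPS10, MRPS18C, MRPS21 and MRPS36 given below for H1975 were all lost without its vehicle column 1. Those of MRPL3, MRPL40, MRPL51, MRPS21 and MRPS36 were also lost after rescaling.

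RKO showed the opposite sign and a wide spread between columns. Of 77 members, 8 (10.4%) were called lower and 0 higher by limma, against 16.1% lower and 2.09% higher among all genes tested in RKO. At an unadjusted p under 0.05 the counts were 30 lower (39.0%) and 0 higher, against 3200 (30.3%) lower and 408 higher of 10551 genes. The median change was -0.33 for the members and -0.26 for all genes, and after rescaling -0.063 and -0.0098. All 8 lower members were among the 15 (19.5%) called lower after rescaling, when none was called higher, and of all genes 1497 (14.2%) were then lower and 1442 higher. With small noncoding RNA genes removed, 16 members (20.8%) were lower and 0 higher, against 1610 (13.1%) and 1242 of all genes. The order of the members' share and the share of all genes therefore changed with the scaling. The median SE of a member was 0.21 in RKO, 0.046 in COLO 201 and 0.069 in H1975. Leaving out doxycycline column 1 left 2 members called (MRPL23 and MRPL42), column 3 left 4 (with MRPL32 and MRPS35), and column 2 gave 32. Without vehicle column 1 there were 10, and 7 of the 8 stayed, MRPL40 being the exception. With no minimum TPM none was called. Without that column and with rescaling, 24 members were called lower and 8 higher, against 3072 and 2976 of all genes.

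**Figure D2:**
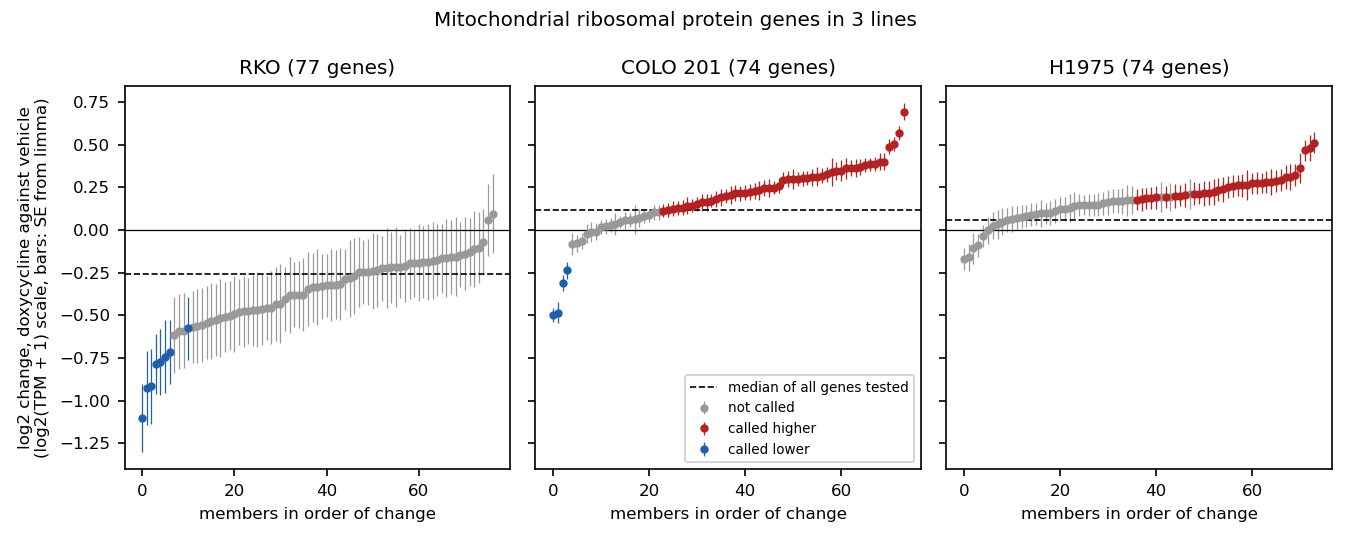
Change of every tested member on the log2(TPM + 1) scale, doxycycline against vehicle, in order of size in each line; bars are standard errors from limma, colours mark calls and the dashed line is the median of all genes tested. Members lie mostly above 0 in COLO 201 (51 called higher) and H1975 (35 called higher) and below 0 in RKO (8 called lower).

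Large-subunit proteins with bacterial counterparts were the class with the most members. In COLO 201, 22 of 29 rose and 1, MRPL17, fell. In RKO 5 of 30 fell, and in H1975 13 of 29 rose and none fell. Of all genes tested, 45.9% rose and 15% fell in COLO 201, and 23.9% rose and 14.6% fell in H1975. The RKO share of 16.7% lay next to the 16.1% of all genes that fell there. The gene with the largest rise in both lines was MRPL24 (chr1:156737303-156741590, minus strand, GENCODE release 29), which encodes a protein of the bacterial L24 family that binds ribosomal RNA during assembly. MRPL24 was at 61.2, 57.6 and 58.3 TPM in the COLO 201 vehicle columns and at 103, 91.6 and 93.4 TPM with doxycycline. In H1975 MRPL24 was at 256, 252 and 261 TPM and then at 376, 374 and 349 TPM. The arms lay well apart in both lines, and the changes were 0.69 ± 0.050 (SE, limma adjusted p = 2.4e-07) and 0.51 ± 0.062 (adjusted p = 2.8e-05). In RKO MRPL24 went the other way without passing the test, with 49.9, 53.9 and 48.3 TPM against 28.4, 41.9 and 35.1 TPM (adjusted p = 0.090).

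MRPL33, a small protein near the exit site for transfer RNA in bacterial ribosomes, was among the 3 members with the highest level in every line. Its level was 354, 381 and 363 TPM with vehicle and 464, 475 and 494 TPM with doxycycline in COLO 201. In H1975 it was 1014, 1026 and 958 TPM and then 1227, 1189 and 1215 TPM, the highest level of any member. MRPL33 rose by 0.38 ± 0.042 and 0.28 ± 0.059 (limma adjusted p = 8.5e-06 and 0.0025). In RKO its vehicle columns of 94.9, 67.7 and 60.5 TPM overlapped those with doxycycline, at 56.3, 70.3 and 62.3 TPM, and the sign of the change turned to 0.28 without vehicle column 1 and with rescaling. On the annotation used here, 21.1% of the exonic bases of MRPL33 are shared with BABAM2 on the same strand, so reads of these genes may have been split.

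Other bacterial-like large-subunit genes differed more between lines. MRPL4 and MRPL34 rose by 0.50 ± 0.040 and 0.40 ± 0.048 in COLO 201, and MRPL34 also rose in H1975, by 0.28 ± 0.064, while MRPL4 did not pass the test there (0.19, limma adjusted p = 0.094). MRPL3, whose bacterial counterpart reaches towards the peptidyl transferase centre, rose by 0.11 in COLO 201 and 0.22 in H1975, but its COLO 201 value became -0.010 after rescaling, and its COLO 201 call was lost without doxycycline column 1 or vehicle column 1 or 3. MRPL18 belongs to the family that binds 5S rRNA in bacteria. It was at 175, 189 and 180 TPM in H1975 vehicle columns and at 217, 217 and 231 TPM with doxycycline, a rise of 0.29 ± 0.064. In RKO MRPL18 fell from 32.7, 30.1 and 27.6 TPM to 15.5, 21.4 and 16.4 TPM, a change of -0.74 ± 0.21 (limma adjusted p = 0.015; not called without doxycycline column 1 or 3), and its window above is the one with the ETS word. In COLO 201 its arms overlapped at means of 158 and 165 TPM.

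MRPL12, a stalk protein of the large subunit that has also been described as a partner of the mitochondrial RNA polymerase, was the one member whose change differed between COLO 201 and H1975 in the joint limma test. It was at 19.6, 18 and 18.1 TPM in COLO 201 vehicle columns and at 23.5, 22.3 and 26.1 TPM with doxycycline. In H1975 it had the lowest level of any member tested, at 9.76, 9.94 and 10.9 TPM and then 8.82, 9.38 and 8.87 TPM. The arms did not overlap in either line, and the directions were opposite. The difference of the changes, COLO 201 minus H1975, was 0.51 ± 0.15 (limma adjusted p = 0.045), with an SE of 0.093 when each line had its own weight, and the call was lost when any 1 column of COLO 201 or H1975 was left out. The fall in H1975 alone did not pass the test (-0.16, adjusted p = 0.11). MRPL12 shares 68.2% of its exonic bases with another coding gene model, AC139530.2, on the same strand, and the level under its own name is uncertain for that reason.

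Among the large-subunit proteins found only in mitochondria, 12 of 19 rose in COLO 201 and 8 of 19 in H1975, and MRPL42 fell in COLO 201. In RKO 2 of 21 fell. Of all genes tested, 45.9% rose in COLO 201 and 23.9% in H1975. In RKO 16.1% of all genes fell, a larger share than in this class. MRPL51 had the highest level of any member in RKO, at 190, 191 and 169 TPM with vehicle and 121, 163 and 140 TPM with doxycycline, which did not pass the test (limma adjusted p = 0.23). It rose in COLO 201 and H1975, by 0.29 and 0.18. MRPL41 followed MRPL51 in level in RKO, at 79.3, 107 and 106 TPM and then 88.7, 123 and 101 TPM with overlapping arms, and it rose by 0.36 in COLO 201. MRPL37 rose by 0.30 ± 0.041 and 0.32 ± 0.064 in the same lines. MRPL53 rose in COLO 201 from 56.9, 59.4 and 59.8 TPM to 83.2, 78.9 and 86.4 TPM, or 0.49 ± 0.044, but shares 45.2% of its exonic bases with CCDC142. MRPL40, a large-subunit protein, rose in both COLO 201 and H1975 (0.34 and 0.20). It fell in RKO (-0.58, adjusted p = 0.028), a call lost without doxycycline column 1 or 3 or any vehicle column.

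Some MRPS names belong to the large subunit or to no subunit, and their values were as follows. MRPS30, which sits in the large subunit, was at 83.4, 93.9 and 86.9 TPM in H1975 vehicle columns and 120, 116 and 134 TPM with doxycycline, a rise of 0.48 ± 0.074, and rose by 0.16 in COLO 201, a call lost without vehicle column 3, after rescaling (0.040, limma adjusted p = 0.39) and with mitochondrially encoded genes removed (0.097, adjusted p = 0.13). MRPS18A, also of the large subunit, rose in COLO 201 (0.20, but 0.082 with a limma adjusted p = 0.21 after rescaling) and did not pass the test in H1975 (0.12, limma adjusted p = 0.19). MRPS36 is no part of the mitoribosome and is known as KGD4, a subunit of the 2-oxoglutarate dehydrogenase complex. It rose by 0.40 in COLO 201 and 0.21 in H1975.

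In the small subunit, 9 of 15 bacterial-like members rose in COLO 201 and 7 of 15 in H1975, and of the mitochondria-specific members 7 of 10 and 6 of 10 rose. In RKO none of 15 and 1 of 10, MRPS35, fell. Beside these counts, 45.9% of all genes rose in COLO 201 and 23.9% in H1975. In RKO 16.1% of all genes fell, a larger share than in either class. MRPS33, one of the latter, was at 301, 298 and 299 TPM in H1975 vehicle columns and 440, 392 and 412 TPM with doxycycline. In COLO 201 MRPS33 was at 87.0, 91.3 and 95.1 TPM and then 116, 111 and 111 TPM. It rose by 0.47 ± 0.063 and 0.30 ± 0.043 (limma adjusted p = 7.9e-05 and 6.3e-05) with separate arms in both lines. MRPS21, of the bacterial S21 family, rose by 0.57 ± 0.039 in COLO 201, from a mean of 81.1 to 121 TPM, and by 0.19 ± 0.061 in H1975. MRPS34 rose by 0.25 in COLO 201 and 0.31 in H1975, and MRPS31 by 0.36 in H1975, while its COLO 201 change of 0.08 did not pass the test. Of the 3 members of the S18 family, MRPS18B rose in COLO 201 and H1975 (0.31 and 0.28) and MRPS18C in H1975 (0.24). MRPS12, at the decoding centre, was called in no line, and the same held for MRPL49, MRPL50, MRPL54, MRPS2 and MRPS9.

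**Figure D3:**
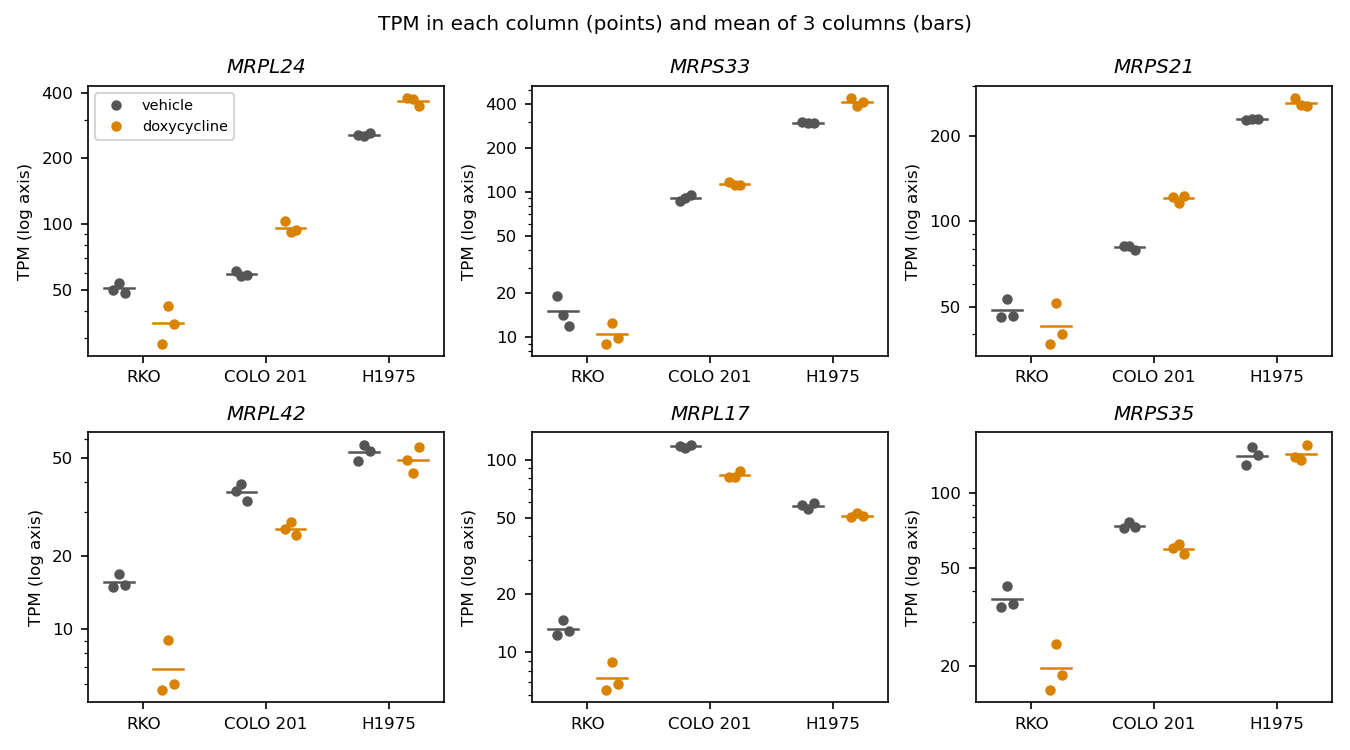
TPM of 6 members in each column (points) and the mean of 3 columns (bars) on log axes, by line and arm. MRPL24, MRPS33 and MRPS21 are higher with doxycycline in COLO 201 and H1975, while MRPL42, MRPL17 and MRPS35 are lower in RKO and COLO 201 and within or near the vehicle range in H1975.

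MRPS10 went in opposite directions in COLO 201 and H1975. This small-subunit protein of the bacterial S10 family had the highest level of any member in COLO 201, at 507, 516 and 478 TPM with vehicle and 422, 454 and 399 TPM with doxycycline, a fall of 0.24 on the log2 scale (limma adjusted p = 0.0014). In H1975 it rose from 101, 117 and 113 TPM to 127, 123 and 140 TPM (0.24, adjusted p = 0.023). The difference of the changes was -0.47 with an adjusted p of 0.096 in the joint test and 0.00037 when lines were weighted by their own spread. The H1975 call was lost without vehicle column 1 or doxycycline column 1.

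MRPL42, MRPL17 and MRPS35 were the 3 members that fell in both colon lines. They made up 37.5% of the 8 lower members of RKO and 75% of the 4 of COLO 201. Of all members tested, 10.4% were lower in RKO and 5.41% in COLO 201, beside 16.1% and 15% of all genes. With so few lower members the overlap is a description only. MRPL42 (chr12:93467488-93516213, plus strand) is a mitochondria-specific protein of the large subunit. Its RKO vehicle columns were at 15, 16.8 and 15.1 TPM and its doxycycline columns at 5.65, 9.05 and 5.98 TPM. In COLO 201 they were at 36.6, 39.3 and 33.5 TPM and 25.7, 27.3 and 24.2 TPM. Every doxycycline column was below every vehicle column, with changes of -1.10 ± 0.20 (limma adjusted p = 0.00032) and -0.48 ± 0.062 (adjusted p = 2.9e-05). In RKO the change was called in every fit that left out 1 column, between -1.29 and -0.99. The H1975 arms overlapped, at means of 53.0 and 49.3 TPM.

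MRPL17 (chr11:6680782-6683401, minus strand), a bacterial-like protein near the exit of the peptide tunnel, showed the same order. It was at 12.2, 14.6 and 12.8 TPM in RKO with vehicle and 6.35, 8.93 and 6.83 TPM with doxycycline. In COLO 201 it was at 118, 115 and 119 TPM and then 81.1, 80.8 and 87.1 TPM. The changes were -0.77 ± 0.19 (limma adjusted p = 0.0055) and -0.50 ± 0.041 (adjusted p = 8.3e-07). The RKO call was lost without doxycycline column 1 or 3. In H1975 the columns were at 57.8, 55.6 and 59.9 TPM and 50.1, 52.8 and 50.9 TPM, which did not overlap. Its change there of -0.17 missed the threshold (adjusted p = 0.056) and passed it after rescaling, at -0.23 (adjusted p = 0.012).

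MRPS35 (chr12:27710773-27756295, plus strand), a mitochondria-specific protein of the small subunit, was at 34.4, 42 and 35.6 TPM in RKO with vehicle and at 15.9, 24.5 and 18.3 TPM with doxycycline. In COLO 201 it was at 72.4, 76.8 and 73.0 TPM and then 59.9, 62.5 and 56.5 TPM. The arms were separate in both colon lines (-0.91 ± 0.22 and -0.31 ± 0.046, limma adjusted p = 0.0041 and 0.00011). In H1975 the MRPS35 arms overlapped, with a change of 0.03. MRPL32, which is known as a substrate of the mitochondrial m-AAA protease before it joins the large subunit, fell in RKO from 36.6, 30.8 and 25.7 TPM to 13.8, 19.5 and 14.4 TPM (-0.93 ± 0.22, adjusted p = 0.0034) and did not pass the test in the other lines. The RKO calls of MRPS35 and MRPL32 were lost without doxycycline column 1. The remaining members lower in RKO were MRPL23 (-0.78), MRPL1 (-0.72), MRPL18 and MRPL40.

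Of the 51 members higher in COLO 201 and the 35 higher in H1975, 24 were the same, which is 47.1% of the first and 68.6% of the second. These shares lay next to the 47.3% of all 74 members tested that were higher in H1975 and the 68.9% that were higher in COLO 201. Across the 74 members the changes in COLO 201 and H1975 had a Pearson r of 0.37 and a Spearman rho of 0.17, against 0.23 and 0.19 over 9403 genes. For COLO 201 and RKO the values were 0.41 and 0.18, against 0.21 and 0.21 over all genes. The members share their columns, so these figures describe the plot only. For COLO 201 and RKO, the points low in both axes (MRPL42, MRPL17 and MRPS35) lie far from the rest. In H1975 their changes were -0.11, -0.17 and 0.03.

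**Figure D4:**
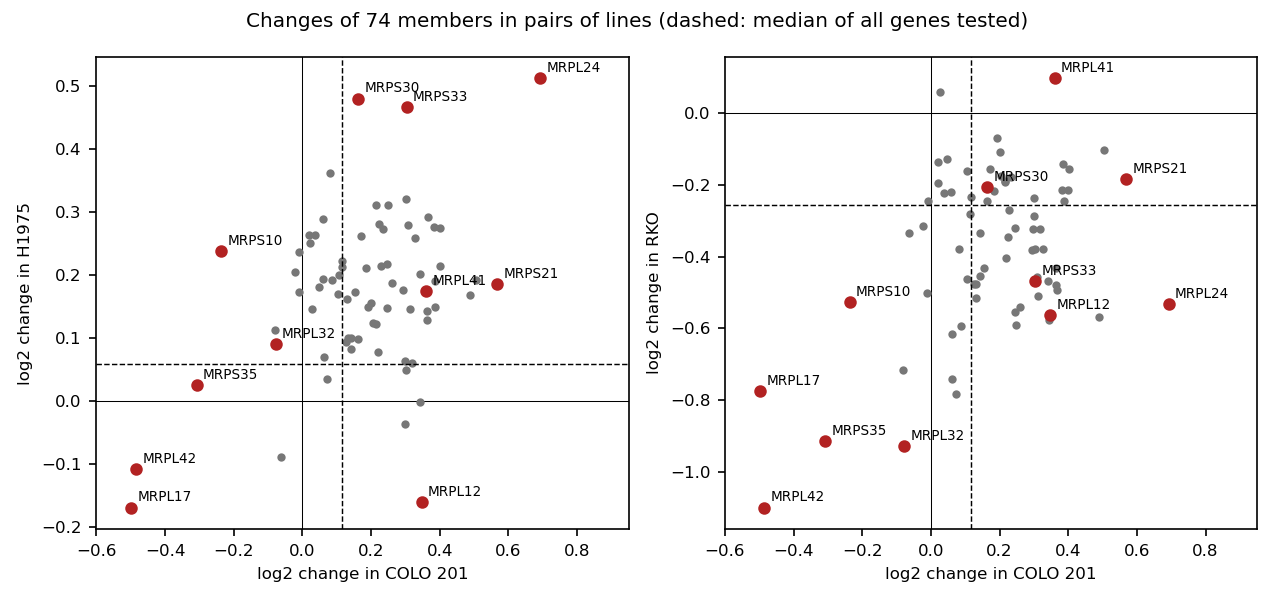
Change of 74 members in COLO 201 against H1975 (left) and RKO (right), log2(TPM + 1) scale, with named members in red and dashed lines at the median of all genes tested. MRPL42 and MRPL17 lie at the lower left of both panels, and MRPL24 is at the right edge of both.

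The difference between lines was tested in a joint limma fit of the 9403 genes tested in every line. Of 74 members, 53 had a higher change in COLO 201 than in RKO and 54 a higher change in H1975 than in RKO, where 48.5% and 41.4% of all genes were called in either direction. The median difference was 0.59 for the members and 0.38 for all genes in the first pair, and 0.51 and 0.34 in the second. Only 1 member, MRPL12, was called between COLO 201 and H1975 in this fit, where 7.2% of all genes were. RKO columns spread more widely than the others, and the joint fit shares 1 spread. With weights estimated per line, an alternative chosen after seeing the data, 20 members were called between COLO 201 and H1975, 10 of them higher in COLO 201. In that fit 3518 of the 9403 genes were called, a larger share than among the 74 members. The counts against RKO were then 46 and 37 of 74 members, where 3477 and 2306 of the 9403 genes were called. After rescaling they were 26 and 29 of 74 members, against 3588 and 3215 of 9385 genes. The members' shares then lay close to those of all genes, which are calls in either direction. Of the members called after rescaling, 24 of 26 and 29 of 29 had a higher change than in RKO. The directions of all genes were not counted in this fit. With small noncoding RNA genes removed, 42 and 36 of 74 members were called, all higher than in RKO. Of all genes 4105 and 3492 of 10049 were then called in either direction, which are smaller shares.

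Other genes of mitochondrial translation were taken from fixed lists, whose counts are read beside the shares of all genes. In COLO 201, 45.9% of all genes tested were called higher and 15% lower. The shares were 23.9% and 14.6% in H1975, and 2.09% and 16.1% in RKO. After rescaling they were 28.5% and 28.7% in COLO 201, 18.5% and 19.9% in H1975, and 13.7% and 14.2% in RKO. Of 8 mitoribosomal proteins with other names, 7 rose in COLO 201 and 1 in H1975, and none of 6 was called in RKO. GADD45GIP1, a large-subunit protein, rose in COLO 201 from 149, 152 and 160 TPM to 209, 205 and 207 TPM, and MRP63, the older name of MRPL57, by 0.48. OXA1L, counted in this list although it inserts the new chains into the inner membrane and is no ribosomal protein, rose by 0.42 in COLO 201. ICT1, the older name of MRPL58 and a peptide release factor within the ribosome, rose by 0.26 in H1975, a call lost without vehicle column 3. After rescaling 5 of the 8 were higher in COLO 201.

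Assembly factors and rRNA-modifying enzymes were called higher more often than all genes in COLO 201 and H1975. Of these, 16 of 25 rose and none fell in COLO 201, 11 of 24 rose and none fell in H1975, and 2 of 24 fell in RKO. Among all genes 45.9% rose in COLO 201 and 23.9% in H1975, and 16.1% fell in RKO. NGRN, needed for the 16S rRNA, rose by 0.55 and 0.38, and TFB1M, which methylates the 12S rRNA, by 0.47 in H1975. In RKO the genes that fell were MRM2, an rRNA methyltransferase (-0.85), and MTG1, a GTPase of large-subunit assembly (-0.53), and both calls were lost without doxycycline column 1, that of MTG1 also without doxycycline column 3 or vehicle column 2 or 3. After rescaling, 10 were higher and 4 lower in COLO 201, 9 and 1 in H1975, and 2 and 1 in RKO. Of all genes 28.5% were then higher and 28.7% lower in COLO 201, 18.5% and 19.9% in H1975, and 13.7% and 14.2% in RKO.

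Translation factors were mixed. In COLO 201, 8 of 16 rose and 4 fell, in H1975 4 of 16 rose and none fell, and in RKO 1 of 15 fell. The shares that rose lay near the 45.9% of all genes in COLO 201 and the 23.9% in H1975. Of all genes, 15%, 14.6% and 16.1% fell in COLO 201, H1975 and RKO. TUFM, the mitochondrial elongation factor Tu, rose by 0.23 in COLO 201 and 0.29 in H1975. MTIF3, an initiation factor, fell in COLO 201 from 126, 117 and 122 TPM to 77.7, 78.7 and 68.9 TPM, a change of -0.69. After rescaling, 1 translation factor was higher and 5 lower in COLO 201 (TUFM no longer passing), 3 and 1 in H1975, and 1 and 2 in RKO.

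Transcription and RNA processing genes of mitochondria counted 7 higher and 1 lower of 17 in COLO 201, 4 and 0 of 17 in H1975, and 0 and 2 of 16 in RKO. The higher shares lay near the 45.9% and 23.9% of all genes in COLO 201 and H1975. In RKO 16.1% of all genes were lower. POLRMT, the mitochondrial RNA polymerase, rose by 0.40 and 0.30 in COLO 201 and H1975. TFAM, which packages mitochondrial DNA, fell in RKO from 13.8, 13.4 and 10.6 TPM to 5.59, 8.98 and 6.84 TPM (-0.76, limma adjusted p = 0.0082), a call lost without doxycycline column 1 or 3. The H1975 call of POLRMT was lost without vehicle column 1 or 2. After rescaling the counts were 6 higher and 5 lower in COLO 201, 3 and 0 in H1975, and 3 and 2 in RKO.

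Of the messenger RNAs that the mitoribosome translates, some were called lower and none higher in COLO 201 and H1975. The lower shares of all genes there were 15% and 14.6%. None of 12 listed in COLO 201 rose and 3 fell, MT-ND4L (-0.64), MT-ND4 (-0.19) and MT-ND1 (-0.19), the last calls both being lost without doxycycline column 1 or vehicle column 1 or 3, and that of MT-ND4 also without doxycycline column 3. In H1975 none of 13 rose and 6 fell, among them MT-CYB (-0.53), MT-ND3 (-0.55) and MT-CO3 (-0.33). MT-CYB, the cytochrome b of complex III, was at 6810, 6495 and 5889 TPM with vehicle and 4330, 4473 and 4426 TPM with doxycycline in H1975. After rescaling 5 of 12 and 6 of 13 were lower and none higher. Mitochondrially encoded genes also held less of the total with doxycycline, as given above. With these genes removed and TPM rescaled to the same total, 41 members were called higher and 6 lower in COLO 201 and 25 and 2 in H1975, at medians of 0.14 and 0.13. Of all genes, 34.9% were then higher and 20.1% lower in COLO 201, and 17.8% and 19.2% in H1975.

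**Figure D5:**
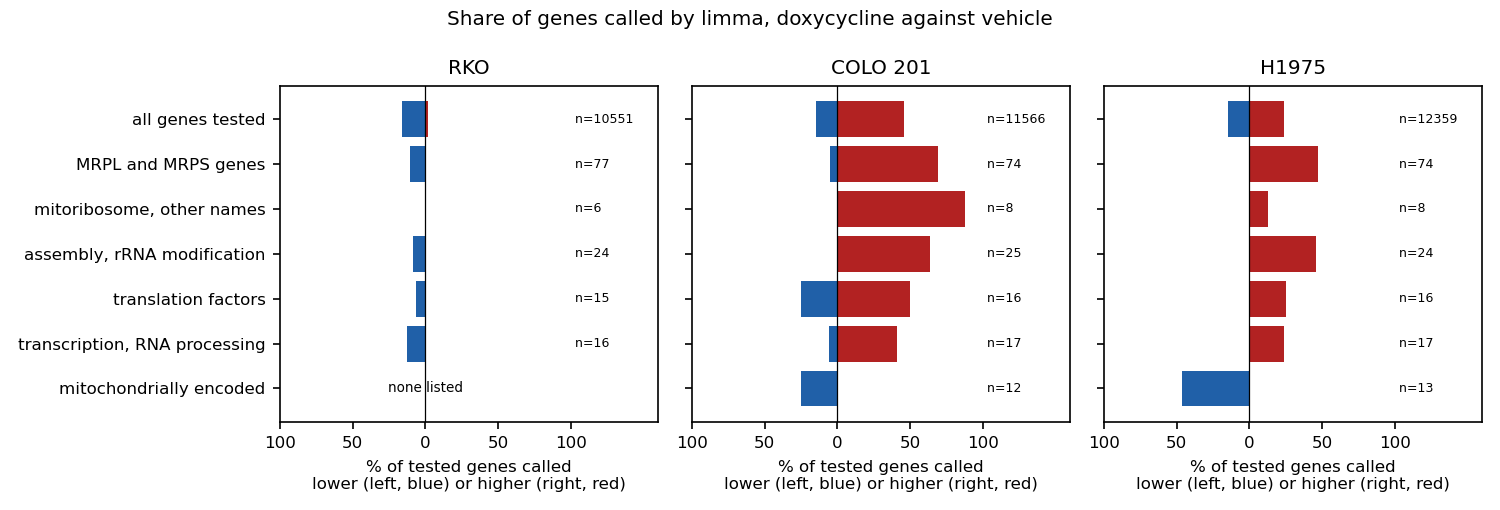
Percent of tested genes called higher (right) and lower (left) by limma in each line, for all genes, the members and 5 lists of related genes, with the number tested at the right. The members and the assembly list lie to the right in COLO 201 and H1975, and the mitochondrially encoded genes to the left.

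Stress and regulator genes were listed for context. Beside the counts of both lists, 45.9% of all genes rose and 15% fell in COLO 201. The shares of all genes were 23.9% and 14.6% in H1975, and 2.09% and 16.1% in RKO. Of 21 mitochondrial stress and protease genes, 10 rose and 7 fell in COLO 201, 7 and 3 in H1975, and 3 and 3 in RKO. After rescaling the counts were 7 and 10, 5 and 4, and 5 and 3. DDIT3, a transcription factor of the stress response, and its target TRIB3 rose in RKO by 1.22 and 1.73, while PSAT1 and MTHFD2, enzymes of serine and one-carbon metabolism, fell in COLO 201 by 0.52 and 0.54 on the log2 scale. GDF15, a secreted stress marker, rose by 1.08 in COLO 201 and 0.78 in H1975. Of 9 regulators of mitochondrial biogenesis tested, 1 rose and 1 fell in RKO, 4 rose and none fell in COLO 201, and 3 rose and none fell in H1975. After rescaling the counts were 2 and 1, 4 and 3, and 3 and 0. MYC, a known activator of ribosome and mitochondrial genes, rose in all 3 lines (0.67 in RKO, 0.50 in COLO 201 and 0.61 in H1975), though the RKO call was lost when any 1 column but vehicle column 2 was left out. PPARGC1A, a coactivator of mitochondrial biogenesis, rose in COLO 201 from 5.76, 6.22 and 5.71 TPM to 12.4, 13.4 and 12.7 TPM and was under 1 TPM in every RKO and H1975 column.

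Markers of other cell types moved with the arms as well, and their part in the members' changes was not tested. In COLO 201 the summed level of 7 leukocyte and erythroid markers was 1219 to 1223 TPM with vehicle and 594 to 626 TPM with doxycycline. LYZ made up nearly all of it, and PTPRC, CD3E and HBB were under 1 TPM in every column. In H1975 the fibroblast and endothelial list was at 45.2 to 47.3 TPM and 17.2 to 20.9 TPM, of which COL1A1 took 34.1 and 11.0 TPM on average, while DCN, PDGFRB, COL3A1, LUM, CDH5 and VWF were under 1 TPM. The markers of the lines' own tissues moved too. In H1975 all 4 lung epithelial markers tested fell, at a median change of -0.73, and the summed level of the 8 listed was 2586 to 3153 TPM with vehicle and 2056 to 2190 TPM with doxycycline, nearly all of it the keratin KRT7. The colon epithelial list in H1975 was at 372 to 438 TPM and then 500.4 to 572 TPM, nearly all of it EPCAM, which rose by 0.38. In COLO 201 the colon list held 2 higher and 3 lower of 6 tested, at 1102 to 1145 TPM and then 955 to 1049 TPM. Fewer cells of a kind and less RNA per cell cannot be told apart in such libraries.

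A few names could not be followed. MRPS24 was below the minimum in every line, at 0.131 TPM in RKO, 0.0432 TPM in COLO 201 and 0.342 TPM in H1975. It shares exons with the readthrough gene URGCP-MRPS24, which was listed at 0 in every column. MRPL30, of the bacterial L30 family, was at 13.4 TPM in RKO and at 0.0019 and 0.021 TPM in COLO 201 and H1975, where C2ORF15, a gene at the same place, was at 7.91 and 12.7 TPM against 0.662 TPM in RKO. How the authors' gene lists split these loci was not tested. The lowest members tested were MRPS11 in RKO at 3.12 TPM, MRPS28 in COLO 201 at 10.5 TPM and MRPL12 in H1975 at 9.62 TPM.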

How the data were processed

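Total RNA was isolated with RNeasy Plus and made into TruSeq Stranded mRNA libraries, per the labels' protocols. STAR, DESeq2 and GRCh38 are named without versions in the submitters' processing notes, and the annotation is not given in the sources used here. The authors deposited TPM, 1 table per line with 6 columns, so the depth per sample is unknown. Sample labels do not give the arm. It was read from the column headings, and RKO columns headed DOX without a sign were taken as vehicle, an inference. Date-like entries (28, COLO 201) were left out.

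For genes with mean TPM of at least 1, log2(TPM + 1) was fitted by limma (version 3.58.1, under R version 4.3.3) with a variance trend, two-sided, and Benjamini-Hochberg adjustment over all genes of the line. Scripts were tested on simulated data. Members and gene lists were chosen with earlier results of these data known. Genes named were the largest calls with separate arms, the highest levels, those called alike or oppositely in several lines, those at the minimum, a few chosen for their role, and up to 3 genes per list and line. Alternatives were pseudocounts of 0.1 and 5, no minimum and a minimum of 5, rescaled columns, removal of mitochondrially encoded or small noncoding genes, no trend, a replicate block and each column left out. Positions and shared exons came from GENCODE release 29.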

Additional observations from a re-analysis of the deposited data

Results flagged for a closer look

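The change with doxycycline differed between lines for many members by limma's test of the difference itself, and the members named by the rule that passed both with the shared spread and with weights per line are given here. Between COLO 201 and RKO 53 members were called, and the log2 difference of the changes was 1.23 for MRPL24, 1.06 for MRPL53, 0.92 for MRPL40, 0.91 for MRPL12, 0.86 for MRPL23, 0.85 for MRPL32, 0.84 for MRPS34, 0.81 for MRPS28, 0.80 for MRPL18 and 0.77 for MRPS33. In the same pair it was 0.77 for MRPS18B, 0.75 for MRPS21, 0.67 for MRPL51, 0.63 for MRPS11, 0.61 for MRPL42, 0.61 for MRPS36, 0.61 for MRPL4, 0.61 for MRPS35, 0.60 for MRPL33, 0.56 for MRPL34 and 0.54 for MRPL37. Between H1975 and RKO 54 members were called, with differences of 1.05 for MRPL24, 1.03 for MRPL18, 1.02 for MRPL32, 0.99 for MRPL42, 0.94 for MRPS35, 0.94 for MRPS33, 0.90 for MRPS34, 0.82 for MRPL23, 0.78 for MRPL40 and 0.77 for MRPS10. In the same pair it was 0.74 for MRPS31, 0.74 for MRPS18C, 0.74 for MRPS18B, 0.74 for MRPL53, 0.69 for MRPS30, 0.61 for MRPL17, 0.56 for MRPL51, 0.56 for MRPL37 and 0.49 for MRPL33. All of these were higher than in RKO, where the median over all genes was also lower by 0.38 and 0.34. Of all genes, 48.5% and 41.4% were called in these pairs in either direction. Between COLO 201 and H1975 1 member was called, MRPL12, at 0.51, where 7.2% of all genes were called. The part of the RKO scale in these differences was not tested beyond the counts under other scalings. After rescaling they were 26 and 29 of 74 members, of which 24 and 29 were higher than in RKO. Beside them stood 3588 and 3215 of 9385 genes called in either direction, which are similar shares. With small noncoding RNA genes removed they were 42 and 36 of 74 members, all higher than in RKO. Of all genes 4105 and 3492 of 10049 were then called in either direction, which are smaller shares.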

How the results depend on the processing

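The sign of the members' median change in each line held under every alternative run, but the counts did not. Medians of other lists turned on rescaling, in RKO from -0.17 to 0.11 for mitoribosomal proteins with other names and from -0.23 to 0.027 for assembly factors, and in COLO 201 from 0.11 to -0.012 for transcription, 0.039 to -0.082 for stress genes and 0.069 to -0.046 for regulators. For RKO members called lower the counts were 0 with no minimum TPM, 15 rescaled and 16 with small noncoding RNA genes removed. With vehicle column 1 left out and columns rescaled, chosen after seeing the data, they were 24 lower and 8 higher. Leaving out 1 column gave 2 to 32. The RKO median became -0.063 rescaled, -0.092 without small noncoding genes and -0.080 without vehicle column 1 and rescaled, where the median of all genes turned to 0.0016, MRPL33 to 0.28 and MRPL4 to 0.15. COLO 201 rescaled gave 31 higher and 9 lower at a median of 0.080, with MRPL3 at -0.010, and the median was 0.14 without mitochondrially encoded genes. H1975 rescaled gave 23 higher and 3 lower at a median of 0.12. Members lower in H1975 were 1 with no minimum and 2 without mitochondrially encoded genes (median 0.13). Leaving out 1 column of H1975 gave 18 to 35 higher and 0 to 1 lower.

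Between COLO 201 and H1975 the count of differing members was 0 with a pseudocount of 0.1, 2 with 5, 0 with a minimum of 5, 14 rescaled, 10 without small noncoding genes, 20 with weights per line and 0 to 4 when 1 column was left out. In that pair 2377 of 9385 genes differed rescaled, 1741 of 10049 without small noncoding genes and 3518 of 9403 with weights. Against RKO the rescaled counts were 26 members for COLO 201 and 29 for H1975, beside 3588 and 3215 of 9385 genes. Without small noncoding genes they were 42 and 36 members, beside 4105 and 3492 of 10049 genes. Of the named members called, 21 of 24 in COLO 201, 10 of 18 in H1975 and 0 of 7 in RKO were called under every alternative. The cause of these shifts was not tested.

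Column numbers did not pair the samples throughout. Same-numbered columns correlated at 0.29, 0.27 and -0.01 in RKO, -0.05, 0.15 and 0.28 in COLO 201, and 0.16, -0.42 and -0.35 in H1975. The own number was the best match in both arms for numbers 1 and 2 of RKO and 3 of COLO 201, but for none of H1975. With the replicate block 19 members were lower in RKO, 54 higher and 4 lower in COLO 201, 20 higher in H1975 and 4 differed between COLO 201 and H1975. Removal of mitochondrially encoded genes was not run in RKO, where none is listed, nor that of small noncoding genes in COLO 201 or H1975 alone. Depth is unknown, so no counting error is given.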
